A study of Homo sapiens with 6 samples.

Results

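DNA replication licensing and synthesis genes were compared between 22Rv1 cells with and without knockdown of MED12. The 52 genes were chosen by name from a list that covers origin licensing, the replicative helicase, the polymerases, the sliding clamp, deoxynucleotide supply and histone deposition. All 52 were found, 1 row each, among the 17901 genes for which the authors deposited log2 CPM (counts scaled to library size), and all 52 were tested. 22Rv1 is an established human prostate cancer cell line that grows despite the androgen receptor inhibitor enzalutamide. MED12 is a subunit of the kinase module of Mediator, the complex that relays signals from transcription factors to RNA polymerase II. Both groups were otherwise unmodified 22Rv1 cells that received a small interfering RNA pool at 25 pmol, given with a lipid reagent 24 h after the cells were seeded. The pool was non-targeting in siCtrl (n = 3 libraries) and directed against MED12 in siMED12 (n = 3 libraries). The medium was renewed after 6 h, and poly(A) RNA was taken on day 3 from the whole culture. Transfection is transient and leaves some MED12 mRNA, and the labels do not say what sets the 3 libraries of a group apart. The study describes its experiments in general as biologically replicated, and p-values here measure the spread between these libraries.

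Chromosomal DNA is copied in a fixed order of steps. In G1 the origin recognition complex, CDC6 and CDT1 load the ring of MCM2 to MCM7 onto origins, which is called licensing, and geminin blocks CDT1 once S phase has begun. CDC45 and the GINS complex then turn the ring into a running helicase, DNA polymerase alpha with its primase lays down primers, and polymerases epsilon and delta extend them on the sliding clamp PCNA. Many of these genes are transcribed at the G1/S transition under E2F factors, so their summed mRNA is widely read as a sign of cycling cells. In a bulk sample, fewer cells in S phase and less mRNA per cell cannot be told apart.

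The promoter letters are shown first, because E2F binding letters are the feature these genes are best known to share. RefSeq promoter windows on GRCh38.p14, each from 250 bases before to 50 bases after an annotated start, were at hand for 46 of the 52 genes. They were searched on both strands for the E2F letters TTTCCCGC, TTTCGCGC, TTTGCCGC and TTTGGCGC, for CCAAT, which the factor NF-Y binds, and for the E-box CACGTG, which MYC and its relatives bind. The 2 stretches below are the 250 bases before a start of PCNA (chr20:5126623-5126872, minus strand), the member with the largest decrease, and of POLE (chr12:132687343-132687592, minus strand), the 1 member that passed the test in the other direction. Capitals mark the E2F and CCAAT matches in either orientation, and in POLE the 2 CCAAT matches share their middle bases.
PCNA: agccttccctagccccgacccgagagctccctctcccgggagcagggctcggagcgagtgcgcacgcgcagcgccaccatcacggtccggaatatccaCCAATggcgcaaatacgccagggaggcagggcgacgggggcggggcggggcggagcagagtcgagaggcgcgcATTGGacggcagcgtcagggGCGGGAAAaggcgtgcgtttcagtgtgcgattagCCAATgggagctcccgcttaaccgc
POLE: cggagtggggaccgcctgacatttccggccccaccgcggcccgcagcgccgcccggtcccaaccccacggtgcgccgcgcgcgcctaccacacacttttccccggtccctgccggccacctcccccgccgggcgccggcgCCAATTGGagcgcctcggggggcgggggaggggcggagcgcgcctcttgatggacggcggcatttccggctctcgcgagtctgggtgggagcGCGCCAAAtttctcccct

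The next 8 sequences are 30-base stretches around E2F matches that lie wholly before the start. CDT1, MCM3, MCM7, RFC3, TYMS and UNG were lower in siMED12 when replicate numbers were taken into account, whereas GMNN and POLA2 did not pass the test, so the letters are shown for members on both sides of the threshold. Capitals mark the E2F match, the strand of the gene is printed, and the positions are chr16:88803743-88803772 for CDT1, chr6:24775322-24775351 for GMNN, chr6:52284898-52284927 for MCM3, chr7:100101566-100101595 for MCM7, chr11:65261898-65261927 for POLA2, chr13:33818083-33818112 for RFC3, chr18:657603-657632 for TYMS and chr12:109098098-109098127 for UNG.
CDT1: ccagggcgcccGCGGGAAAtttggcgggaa
GMNN: gctgggtcggtTTTGGCGCgctctcacttc
MCM3: cggatggtacgTTTCCCGCcaccgcggggc
MCM7: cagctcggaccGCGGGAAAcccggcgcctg
POLA2: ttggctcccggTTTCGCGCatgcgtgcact
RFC3: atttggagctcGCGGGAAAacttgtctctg
TYMS: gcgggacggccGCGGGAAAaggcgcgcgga
UNG: gagggaggtttTTTGCCGCgaaaagaccac

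An E2F match was present for 23 of the 46 replication genes with a window, or 50%, against 3.99% of all 27305 genes in the promoter table. By window, 24 of 60 (40%) held one, against 3.31% of all 35116 windows of the same length. Of the other lists described below, 24.4% of further replication factors, 24% of G1/S regulators and 12% of mitosis genes had an E2F match. CCAAT occurred for 63.0% of the replication genes and for 39.7% of all genes, and the E-box for 17.4% and 8.77%. Neither was particular to the replication genes. For further replication factors, G1/S regulators and mitosis genes, CCAAT stood at 53.3%, 48% and 76% and the E-box at 17.8%, 16% and 20%. These are counts of letters and not of bound factors, and no test was made on them. Genes with and without E2F letters had like changes after MED12 knockdown, described here with no test. The median log2 fold change of siMED12 against siCtrl was -0.20 over the 23 genes with a match (range -0.50 to 0.10) and -0.19 over the 23 without (range -0.36 to 0.05). With replicate numbers in the fit, 16 of the former and 15 of the latter were lower at an adjusted p below 0.05.

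**Figure D1:**
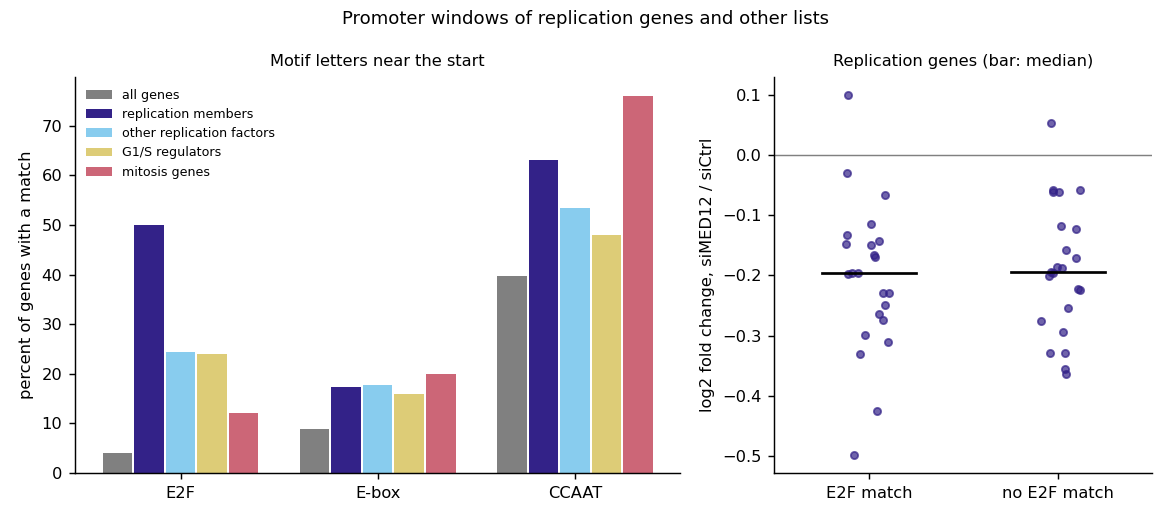
Left, percent of genes (vertical axis) whose promoter window holds an E2F, E-box or CCAAT match, for all genes in the table and for 4 lists (bars). Right, log2 fold change of siMED12 against siCtrl (vertical axis) for 23 replication genes with and 23 without an E2F match (points, with bars at the medians of -0.20 and -0.19), spread sideways for visibility: the replication genes have the highest bar for E2F letters at 50%, and the 2 clouds of points overlap.

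The 6 libraries held 16136699 to 17012788 counts assigned to genes, and every replication gene had between 245 and 11748 counts in every library, so that none was near the detection limit. MED12 itself had 67.8, 77.7 and 72.6 CPM in siCtrl replicates 1 to 3 against 23.9, 14.97 and 30.1 CPM in siMED12, a log2 fold change of -1.66 (SE 0.23, adjusted p 0.0314 by the edgeR quasi-likelihood test). That call was lost without siCtrl replicate 1 (adjusted p 0.0818), siCtrl replicate 2 (0.186), siMED12 replicate 1 (0.108) or siMED12 replicate 2 (0.130, edgeR). In each of these fits 0 of all tested genes were called in either direction. The log2 fold change of MED12 stayed between -1.90 and -1.45 in all 6 fits that left out 1 library. Libraries with the same replicate number resembled each other: mitochondrial genes took 4.43% to 10.1% of the counts and followed the number, not the treatment. The label of the cells was checked against 7 markers of prostate epithelium, HOXB13, KRT8 and EPCAM among them, whose summed level was 3118 to 3243 CPM in siCtrl and 2692 to 2837 CPM in siMED12. The 4 fibroblast markers summed to 15.8 to 28.0 CPM in siCtrl and 16.3 to 27.2 CPM in siMED12. Nearly all of that was COL1A1, with a mean of 328 counts per library, against 7.83 for DCN, 2.5 for PDGFRB and 0.5 for COL1A2. The 3 leukocyte markers summed to at most 0.476 CPM and the 3 endothelial markers to at most 0.122 CPM, with CD3E and CDH5 at 0 in every library. The summed epithelial markers were thus lower along with the replication genes, with changes of -12.5%, -13.7% and -12.6% within replicate numbers 1, 2 and 3, and their part in the results below was not tested.

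The replication genes were lower in siMED12 as a group, by small amounts. Their summed level was 6993, 7239.9 and 6709.6 CPM in siCtrl against 6151, 6173 and 5782 CPM in siMED12, so that every siMED12 library lay below every siCtrl library. Within replicate numbers 1, 2 and 3 the sum changed by -12.04%, -14.7% and -13.8%. The log2 fold change was below 0 for 49 of the 52 genes (94.2%), compared with 47.6% of all tested genes, and its median was -0.19, compared with 0.02 over all tested genes. In the edgeR fit without replicate numbers, 0 genes were lower and 0 higher at an adjusted p below 0.05, where 0.413% of all tested genes were called lower and 0.151% higher. At an unadjusted p below 0.05, 14 were lower (26.9% of the 52, against 7.93% of all tested genes) and 0 higher (against 7.65%). With other tests that leave out the replicate numbers, 4 genes were lower by the DESeq2 Wald test (PCNA, UNG, TYMS and CDC45) and 1 by limma-trend (PCNA), and 0 were higher by either. Over all genes, the Wald test called 493 of 14428 lower and 331 higher, and limma-trend called 78 of 17901 lower and 27 higher. The smallest adjusted p-values in the edgeR fit were 0.0515 for PCNA and 0.0629 for UNG.

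With the replicate number as a block, which lowered the estimated dispersion from 0.0368 to 0.00228, 34 of the 52 genes (65.4%) fell and 1, POLE (adjusted p 0.046), rose at an adjusted p below 0.05 (edgeR), against 16.2% of all tested genes called lower and 17.1% called higher. The remaining 17 did not pass: ORC3, ORC4, ORC5, GMNN, GINS1, POLA1, POLA2, PRIM1, PRIM2, POLD3, POLE2, RFC1, RFC5, CHAF1B and the 3 RPA genes. The median was -0.20 in this fit, so the block changed the error and hardly the size of the differences. Counted without any model, 44 of the 52 genes (84.6%) were lower in siMED12 within all 3 replicate numbers, against 27.0% of all tested genes, and 3 (POLD3, POLE and RPA1) were higher within all 3, against 30.6%. The groups did not overlap, with siMED12 lower, for 21 genes (40.4%, against 10.9% of all tested genes) and with siMED12 higher for 0 (against 11.2%). The medians within replicate numbers 1, 2 and 3 were -0.17, -0.21 and -0.21 on the log2 scale.

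**Figure D2:**
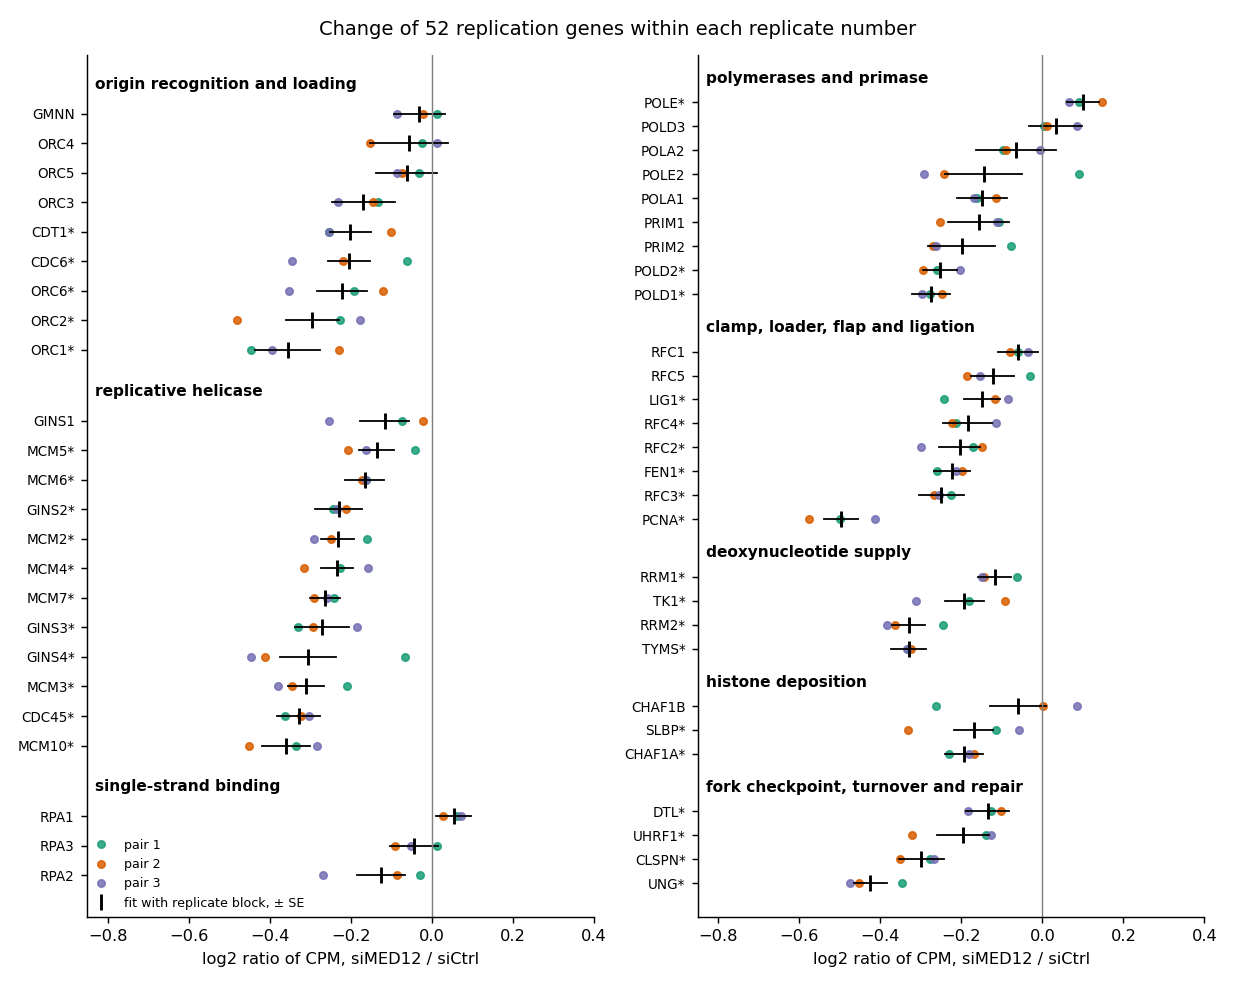
Log2 ratio of CPM, siMED12 over siCtrl (horizontal axis), for each of the 52 replication genes (rows, grouped by step), with 1 coloured point per replicate number and a black mark with a line for the edgeR estimate with the replicate block ± SE. An asterisk marks an adjusted p below 0.05: 34 genes lie left of 0 and POLE lies right of 0 with an asterisk, and in 44 rows all 3 points lie left of 0.

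Genes of origin recognition and helicase loading were lower in part. Of the 9 genes, 5 fell with the block (ORC1, ORC2, ORC6, CDC6 and CDT1), or 55.6% against 16.2% of all tested genes, and 0 rose. Lower within all 3 replicate numbers were 7 (77.8%, against 27.0%). The groups separated, with siMED12 lower, for 1 of them, ORC6 (11.1%, near the 10.9% of all tested genes). ORC1, the ATPase subunit of the origin recognition complex whose level rises and falls with the cycle, had 39.6, 33.8 and 26.6 CPM in siCtrl against 29.0, 28.8 and 20.2 CPM in siMED12. The groups overlapped, with replicate 3 low under both treatments, while each siMED12 library was below the siCtrl library of the same number, with changes of -26.6%, -14.7% and -23.9%. The log2 fold change was -0.36 in both fits, with SE 0.19 and adjusted p 0.439 in the unblocked fit and SE 0.08 and adjusted p 0.000521 in the blocked fit (edgeR). CDC6, the ATPase that joins ORC on the origin, had the highest CPM of the 9, with 121, 117 and 102 CPM in siCtrl against 116, 100.9 and 80.3 CPM in siMED12, which also overlap. Its log2 fold change was -0.20 (SE 0.14, adjusted p 0.584), and 0.00224 was the adjusted p with the block (edgeR). The log2 fold changes of ORC2, ORC6 and CDT1 were -0.29, -0.22 and -0.20. GMNN, which encodes geminin, the inhibitor of CDT1, stood at -0.03 and was at 0.01 when libraries were scaled by size only. ORC3, ORC4 and ORC5, core subunits of the complex, had log2 fold changes of -0.17, -0.06 and -0.06 that passed neither fit.

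The replicative helicase, the step with the most genes, was lower throughout. All 12 genes had a log2 fold change below 0 (median -0.25) and were lower within all 3 replicate numbers, 11 fell with the block and the groups separated for 7. Summed over the 12, siCtrl had 2306, 2414 and 2255 CPM and siMED12 2007, 1992 and 1904 CPM. MCM7, one of the 6 subunits of the ring, had the highest CPM of the 52 before any scaling to length, with 643, 688 and 716 CPM in siCtrl against 544, 563 and 598 CPM in siMED12. Every siMED12 library was below every siCtrl library, the means were 682 ± 37.1 and 568 ± 27.7 CPM (SD, n = 3), and the log2 fold change was -0.26 (SE 0.09, adjusted p 0.195 without and 2.52e-07 with the block, edgeR). MCM10, which helps to start the helicase and has no place in the ring, had 79.0, 79.6 and 52.4 CPM in siCtrl against 62.7, 58.2 and 43.1 CPM in siMED12. Its groups overlapped through siCtrl replicate 3, and its log2 fold change of -0.36, the largest of the step, had an SE of 0.20 and an adjusted p of 0.428, which became 0.06 and 7.62e-06 with the block (edgeR). The other ring subunits had log2 fold changes of -0.31 (MCM3), -0.24 (MCM4), -0.23 (MCM2), -0.17 (MCM6) and -0.14 (MCM5), all called with the block. CDC45, which joins the ring when an origin fires, had a log2 fold change of -0.33 with an adjusted p of 0.118 without and 5.4e-06 with the block (edgeR). Of the 4 GINS subunits, GINS2, GINS3 and GINS4 fell with the block (-0.23, -0.27 and -0.31) and GINS1 had a log2 fold change of -0.11 with an adjusted p of 0.147.

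The polymerases and primase were called at shares near those of all tested genes. Of 9 genes, 2 fell (22.2%, against 16.2% of all tested genes) and 1 rose (11.1%, against 17.1%) with the block. The 2 that fell both encode polymerase delta, the main lagging strand enzyme: its catalytic subunit POLD1 had 133, 139 and 148 CPM in siCtrl against 109, 117 and 120.2 CPM in siMED12 (log2 fold change -0.27, SE 0.09, adjusted p 0.185 without and 1.18e-05 with the block, edgeR), and POLD2 had a log2 fold change of -0.25. In both, every siMED12 library was below every siCtrl library. POLD3, an accessory subunit of the same enzyme, was at 0.03 (95% interval with the block -0.10 to 0.16) and at -0.015 once the blocked fit was corrected for length and GC content. POLE, the catalytic subunit of the leading strand polymerase, had 276, 278 and 338 CPM in siCtrl against 294, 308 and 354 CPM in siMED12, higher by 6.54%, 10.8% and 4.57% within replicate numbers. Its groups overlapped, and its log2 fold change of 0.10 had adjusted p-values of 0.758 (unblocked) and 0.046 (blocked, edgeR). That call was lost with the block when DESeq2 size factors (adjusted p 0.0551) or a correction for GC content and length (0.217) were used, and without replicate number 1 (0.230) or 2 (0.433). POLE2, its second subunit, stood at -0.14. POLA1 and POLA2 of polymerase alpha and PRIM1 and PRIM2 of the primase had log2 fold changes of -0.15, -0.07, -0.16 and -0.20, and none passed with the block (adjusted p 0.0559 to 0.662, edgeR).

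The clamp and its partners held the largest decrease. All 8 genes were below 0 and lower within all 3 replicate numbers, 6 fell with the block, and the groups separated for 6. PCNA, the ring that tethers polymerases to DNA, had 289, 318 and 287 CPM in siCtrl against 204, 214 and 216 CPM in siMED12. The lowest siCtrl library was well above the highest siMED12 library, and within replicate numbers PCNA changed by -29.3%, -32.9% and -25.0%. The means were 298 ± 17.5 and 211 ± 5.99 CPM (SD, n = 3) and PCNA had a log2 fold change of -0.50 (SE 0.08; adjusted p 0.0515 without and 2.4e-12 with the block, edgeR). Without the block it passed 0.05 with DESeq2 size factors (0.0473), the DESeq2 Wald test (0.000138), limma-trend (0.0474) and other gene filters (0.0117 to 0.0373), and it did not with library size only (0.0522) or without any 1 library (0.0669 to 0.251). Without siCtrl replicate 1 or 2 or siMED12 replicate 1 or 2, 0 of all tested genes were called in either direction. PCNA spans chr20:5114953-5126626 on the minus strand and shares no exon bases with another annotated gene. The clamp loader RFC opens the ring: RFC3, RFC2 and RFC4 fell with the block (-0.25, -0.20 and -0.19), while RFC5 (-0.12) and RFC1 (-0.06) did not pass. FEN1, which trims the flaps of Okazaki fragments, and LIG1, which seals them, fell with the block, with log2 fold changes of -0.22 and -0.15.

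Single-strand binding was the step with the smallest differences. RPA1, the large subunit of the protein that coats unwound DNA, had 165, 187 and 160.3 CPM in siCtrl against 172, 190.4 and 169 CPM in siMED12 (log2 fold change 0.05, SE 0.10, adjusted p 0.858 without and 0.367 with the block, edgeR). RPA2 had 65.8, 72.2 and 63.4 CPM in siCtrl against 64.4, 68.0 and 52.6 CPM in siMED12 (-0.12, SE 0.12, adjusted p 0.710 and 0.110), and RPA3 stood at -0.04. The groups overlapped for each of the 3. The 95% intervals with the block were -0.03 to 0.14 for RPA1, -0.24 to -0.01 for RPA2 and -0.16 to 0.07 for RPA3. The median of the 52 genes with the block (-0.20) lies inside the interval of RPA2 and outside those of RPA1 and RPA3. A decrease of the usual size is therefore not excluded for RPA2. The summed level of the 3 was 289, 324 and 287 CPM in siCtrl against 296, 319 and 282 CPM in siMED12.

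All 4 genes of deoxynucleotide supply fell with the block. TYMS, which makes thymidylate, had 209, 213 and 220.4 CPM in siCtrl against 166, 170.3 and 175 CPM in siMED12. The groups were far apart relative to their spread, and the change was nearly equal within replicate numbers at -20.6%, -20.2% and -20.6%. The log2 fold change was -0.33 (SE 0.08, adjusted p 0.108 without and 5.47e-08 with the block, edgeR). Of the exon bases of TYMS (chr18:657653-673578, plus strand), 47.9% are also exon bases of TYMSOS or ENOSF1 on the opposite strand, and since the use of strand in counting is not given in the sources used here, part of these counts could belong to them. RRM2, the cycle-regulated subunit of ribonucleotide reductase, had 308, 322 and 271 CPM in siCtrl against 260.2, 250.01 and 208 CPM in siMED12 (log2 fold change -0.33, SE 0.11, adjusted p 0.215 without and 3.23e-08 with the block, edgeR), and each siMED12 library lay below each siCtrl library. RRM1, the large subunit, changed by -0.12, and TK1, the thymidine kinase of the salvage route, by -0.19.

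For histone deposition, 2 of 3 genes fell with the block. CHAF1A, the large subunit of the chaperone CAF-1 that places histones behind the fork, had 146, 146 and 142 CPM in siCtrl against 125, 129 and 125 CPM in siMED12, without overlap (log2 fold change -0.19, SE 0.08, adjusted p 0.285 without and 0.00101 with the block, edgeR). CHAF1B of the same complex was lower within 1 replicate number only and stood at -0.06. SLBP, which binds the stem-loop of histone mRNAs, had 161, 185 and 159 CPM in siCtrl against 149, 147 and 153 CPM in siMED12, again without overlap (-0.17, SE 0.09, adjusted p 0.422 without and 0.00542 with the block, edgeR). The last 4 genes act at or after the fork, and all 4 fell with the block. UNG, the glycosylase that removes uracil from DNA, had 276, 299 and 289 CPM in siCtrl against 217, 218 and 208 CPM in siMED12, a wide gap compared with the spread within groups. Its log2 fold change of -0.43 (SE 0.08) was second to that of PCNA, with an adjusted p of 0.0629 without and 1.18e-10 with the block (edgeR). It passed without the block under the DESeq2 Wald test (0.00106) and 3 other gene filters (0.0365 to 0.0453). CLSPN, the checkpoint adaptor claspin, UHRF1, which brings DNMT1 to new DNA, and DTL, which directs CDT1 to degradation on PCNA, had log2 fold changes of -0.30, -0.20 and -0.13.

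**Figure D3:**
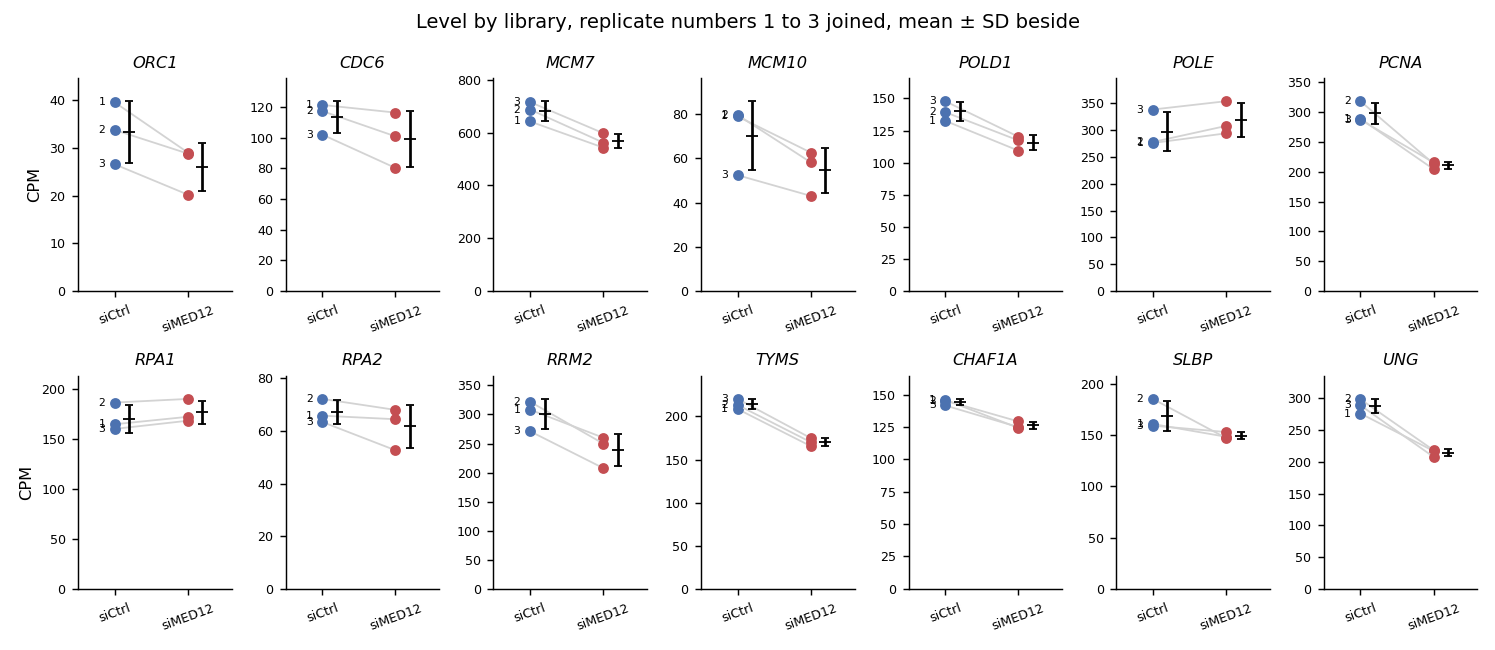
CPM (vertical axes, starting at 0) in each library for the 14 replication genes given with all 6 values by rule, siCtrl in blue and siMED12 in red, with grey lines joining equal replicate numbers (labelled 1 to 3) and black marks for the mean ± SD (n = 3). PCNA, UNG, TYMS, MCM7 and CHAF1A separate the groups, ORC1, MCM10 and CDC6 overlap while every line slopes down, and POLE and RPA1 slope up.

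Level and change were compared across the genes per length, as CPM per kb of annotated exon. PCNA had the highest level of the 52 (182 CPM per kb), followed by MCM7 (126), SLBP (84.5), TYMS (79.4), TK1 (75.5) and FEN1 (72.1), all of which fell with the block. The lowest levels were those of POLA2 (1.57), ORC4 (2.20), POLA1 (3.57) and PRIM2 (4.92), none of which passed. The log2 fold change of PRIM2 (-0.20) was nevertheless close to the median of the 52. Next above them, CLSPN (8.06), GINS3 (9.09), GINS4 (9.31) and ORC1 (9.51) fell with the block. In the same range, POLE2 (7.18), ORC3 (7.57), GINS1 (7.84), POLD3 (8.71) and ORC5 (9.08) did not pass. A link between level and change was not tested. POLA2 shares 2012 exon bases with another annotated gene on its own strand, and how reads of shared bases were assigned is not given in the sources used here. Exons overlapped a gene on the opposite strand for 21 of the 52, most after TYMS for MCM2 (23.6% of exon bases) and GINS4 (23.4%), where the partners had few counts, and for GINS3 (10.9%), RFC5 (10.6%, mostly with the abundant WSB2) and MCM7 (7.90%, with AP4M1). The 20 annotated pseudogenes named after the 52 genes had at most 0.243% of the counts of their parent.

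Differences between replicate numbers were general in these libraries, and the replication genes had them at a share near that of all tested genes. In the blocked fit, 29 of the 52 (55.8%) differed between replicate numbers at an adjusted p below 0.05 (edgeR), against 47.1% of all tested genes. Replicate number 3 was below number 1 for 35 of the 52 (67.3%, against 51.4% of all tested genes), with a median log2 difference of -0.11. The differences of number 3 from number 1 were -0.70 for DTL, -0.69 for ORC5, -0.57 for MCM10, -0.55 for ORC1 and -0.49 for RFC1, and 0.28 for POLE. For 26 of the 52 the difference between numbers 3 and 1 exceeded that between treatments. In the lists described below this held for 32 of 53 other replication factors, 18 of 31 G1/S regulators and 13 of 29 mitosis genes. It was not counted over all tested genes. PCNA, UNG, TYMS and CDC45 did not pass the test between numbers (adjusted p 0.214 to 0.853, edgeR), and for them the treatment difference was the larger one. What the replicate numbers stand for is not given in the sources used here.

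**Figure D4:**
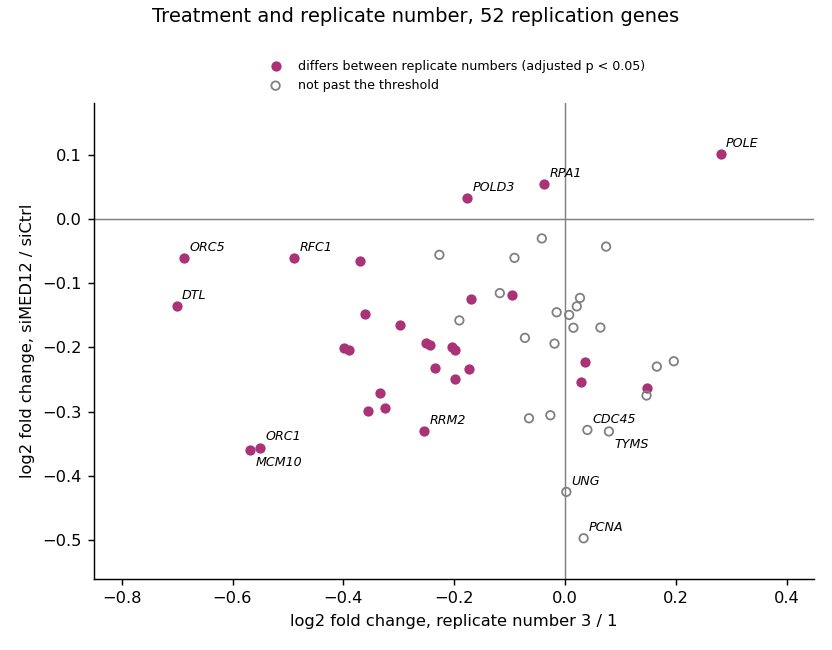
Log2 fold change of siMED12 against siCtrl with the replicate block (vertical axis) against the log2 fold change of replicate number 3 against number 1 (horizontal axis) for the 52 replication genes, filled where the numbers differed at an adjusted p below 0.05 (29 genes). DTL and ORC5 lie far to the left at -0.70 and -0.69 with small treatment changes, and PCNA and UNG lie near 0 horizontally with the lowest treatment values.

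Other lists were set beside the 52 genes to show where they differ in count. Other replication factors, 53 genes that act in firing, fork protection or nucleotide metabolism, had a median of -0.09 on the log2 scale. Without the block, 0 were called by edgeR, DESeq2 or limma-trend. At an unadjusted p below 0.05, 2 were lower (3.77%) and 1 higher by edgeR, against 7.93% and 7.65% of all tested genes. With the block, 15 were lower (28.3%) and 6 higher (11.3%), against 16.2% and 17.1% of all tested genes. The 6 became 2 without replicate number 1 or when GC content and length were corrected for, and 3 without number 2 or number 3. Among the genes called with the block, the largest decreases were those of DSCC1 (-0.35), a subunit of the cohesion clamp loader, SSRP1 (-0.29), of the histone chaperone FACT, and TIPIN (-0.28), of the fork protection complex. FAM111A, a protease that acts at PCNA-bound forks, rose by 0.52 with the block, MCM9, a helicase of recombination repair, by 0.33 and ETAA1, an activator of ATR, by 0.28. FAM111A kept its call in each of these 4 fits, whereas MCM9 lost it without number 1 (adjusted p 0.158) and with the GC and length correction (0.0591), and ETAA1 without number 1 (0.0503), without number 3 (0.167) and with that correction (0.0909, edgeR). G1/S regulators (31 of 32 tested, CCND2 being too low) had a median of -0.14. Without the block, 1 gene was lower and 0 higher, against 0.413% and 0.151% of all tested genes. With the block, 14 were lower (45.2%, against 16.2%) and 6 higher (19.4%, near the 17.1% of all tested genes). The 1 gene called without the block was E2F2, an activating E2F factor, with 127, 129 and 132 CPM in siCtrl against 87.7, 81.7 and 81.9 CPM in siMED12 (log2 fold change -0.63, SE 0.08, adjusted p 0.0297, edgeR), a decrease larger than that of any of the 52 replication genes. Its adjusted p rose to between 0.0511 and 0.201 when any 1 library was left out without the block (edgeR). When that library was replicate 1 or 2 of either group, 0 of all tested genes were called.

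E2F1, the E2F factor best known from the G1/S transition, had 137, 133 and 133 CPM in siCtrl against 103, 109.9 and 91.9 CPM in siMED12, without overlap (log2 fold change -0.40, SE 0.09, adjusted p 0.104 without and 3.59e-08 with the block, edgeR). E2F8, an atypical E2F, and CDK6, a cyclin D partner, fell with the block, with log2 fold changes of -0.61 and -0.45. E2F7 (0.30) and the inhibitors of cyclin-dependent kinases CDKN2C (0.30) and CDKN1B (0.27) rose with it. The other listed inhibitors of this kind did not share the rise. CDKN1A and CDKN1C were lower in siMED12 within every replicate number, and CDKN2A and CDKN2D had no common direction across the numbers. MYC, a transcription factor that drives growth, had 217, 51.7 and 24.3 CPM in siCtrl against 92.5, 21.3 and 13.02 CPM in siMED12, lower within each replicate number and spread widely between numbers (log2 fold change -1.21, SE 0.89, adjusted p 0.586 without and 3.91e-17 with the block, edgeR), and without siCtrl replicate 1 the unblocked value was 0.14. Mitosis genes (29 of 30 tested, NUSAP1 having too few counts) had a median of -0.07. Of the 3608 exon bases of NUSAP1, 3133 are shared with genes on its own strand, and how their reads were assigned is not given. Without the block, 0 were called by edgeR or limma-trend and 1 was lower by DESeq2. At an unadjusted p below 0.05, 4 were lower (13.8%) and 0 higher by edgeR, against 7.93% and 7.65% of all tested genes. With the block, 7 were lower (24.1%) and 0 higher, against 16.2% and 17.1%, and 11 were lower once GC content and length were corrected for. Among those called with the block, KIF11 (-0.45), BUB1B (-0.36) and CDC20 (-0.33) showed the largest decreases. The difference between these lists and the 52 replication genes was not tested.

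**Figure D5:**
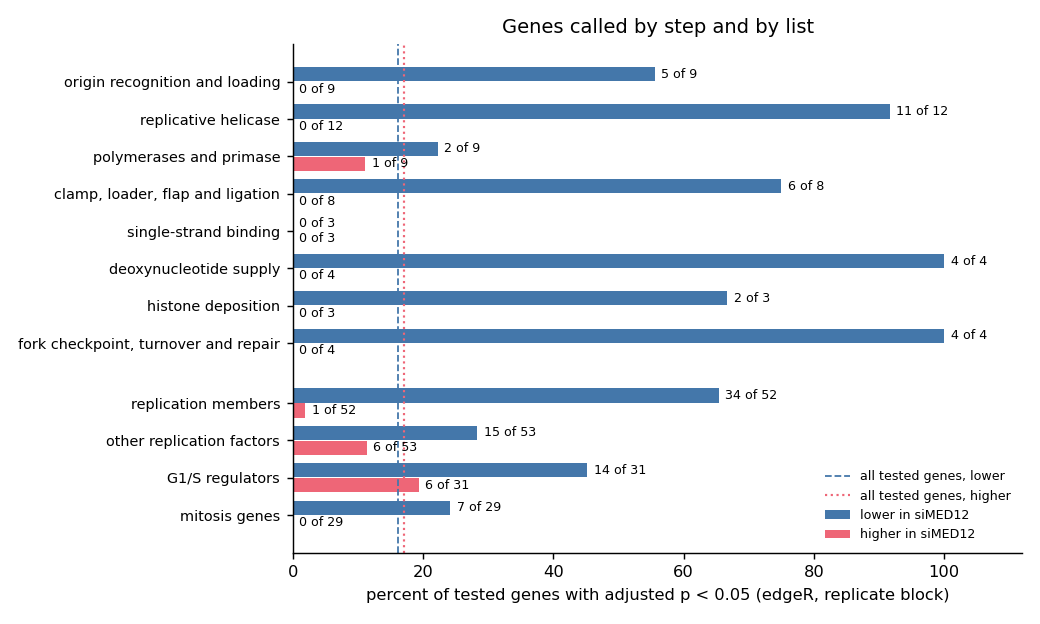
Percent of tested genes with an adjusted p below 0.05 in edgeR with the replicate block (horizontal axis), lower (blue) and higher (red) in siMED12, for the 8 steps of the 52 replication genes and for the 4 lists (rows), with counts printed at the bars and vertical lines at the shares of all tested genes, 16.2% lower and 17.1% higher. The helicase reaches 11 of 12 lower, single-strand binding has 0 of 3 in either direction, and the 52 genes together have 34 lower and 1 higher.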

How the data were processed

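Strand-specific poly(A) libraries of 22Rv1 cells (3 siCtrl and 3 siMED12) were sequenced for the study. Alignment and counting were done by the authors with Rsubread (GRCh38.p13, Gencode annotation), and raw read counts were deposited for 62703 genes. The Rsubread version, the use of strand and the handling of multiple matches are not given in the sources used here. The authors also deposited log2 CPM values for 17901 genes, which could be rebuilt from the counts to within 4.96e-09 by filtering in edgeR, scaling by TMM and adding a prior count of 2.

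Counts were tested with edgeR 4.0.16 in R 4.3.3: expression filter, TMM factors and the two-sided quasi-likelihood F-test on treatment, with Benjamini-Hochberg adjustment over 17901 genes and a threshold of 0.05. CPM values use TMM-scaled library sizes. Each SE is the fold change divided by the root of F. After subtraction of group means, log2 CPM correlated at 0.373 to 0.643 between libraries of equal replicate number and at -0.460 to -0.0233 otherwise, so the numbers in the labels were taken to pair the libraries, and values from a fit that blocks on them stand beside the unblocked ones. No 2 replicates of a group were duplicates (chi-square per degree of freedom 10.3 to 40.7).

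The 52 genes, their steps and the other lists were chosen with earlier results of these data known. Members given with 6 values are those called without the block, the largest change and the highest mean CPM of each step, and the 6 largest decreases and 3 largest increases called with the block. Of the other lists, genes called without the block and the 3 largest changes per direction with it are named, and MED12, MYC and E2F1 in every case. Genes with 2 roles count once. Gene models came from Gencode release 44 (GRCh38), which held 99.97% of the counted genes. Alternatives comprised scaling by DESeq2 size factors or by library size alone, the Wald test of DESeq2 1.42.0, limma-trend (3.58.1) on the deposited log2 CPM, other filters, a stricter threshold, the block alone or with GC and length correction (loess, span 0.5, 17897 genes) or other scalings, and leaving out each library or replicate number.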

Additional observations from a re-analysis of the deposited data

How the results depend on the processing

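All counts in this paragraph are genes at an adjusted p below 0.05. With the replicate block, the counts rose from 0 lower and 0 higher to 34 and 1 for the 52 replication genes, from 0 and 0 to 15 and 6 for other replication factors, from 1 and 0 to 14 and 6 for G1/S regulators and from 0 lower to 7 lower for mitosis genes. Over all 17901 tested genes they rose from 74 and 27 to 2908 and 3058. Without the block, the replication genes had 1 lower with DESeq2 size factors or limma-trend (PCNA), 2 with no expression filter, with a mean of at least 1 CPM or with protein-coding genes only (PCNA and UNG) and 4 with the DESeq2 Wald test (PCNA, UNG, TYMS and CDC45). The Wald test gave 3 lower G1/S regulators and 1 lower mitosis gene, and protein-coding genes only gave 2 and 1. Of all 17901 tested genes, 80 were lower with DESeq2 size factors and 78 with limma-trend, and the Wald test gave 493 of 14428. With no expression filter, a mean of at least 1 CPM or protein-coding genes only, 290 of 34030, 118 of 16286 and 176 of 13382 were lower. With the block, replication genes had 37 lower with GC and length correction or DESeq2 size factors, and 29 lower and 1 higher with library size only. Other replication factors then had 21 lower and 2 higher, 16 and 6, and 13 and 6, G1/S regulators 14 and 5, 14 and 6, and 12 and 6, and mitosis genes 11 lower, 8 lower, and 7 lower and 1 higher, in that order. Of all tested genes, 2929 of 17897, 3069 of 17901 and 2413 of 17901 were lower and 2716, 2960 and 3807 higher, in the same order. With library size only, which raised the median of all genes by 0.04, the medians were -0.15 for replication genes with or without the block, -0.048 without and -0.047 with it for other replication factors, and -0.031 and -0.032 for mitosis genes.

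Leaving out 1 library without the block gave 0 lower replication genes each time and medians of -0.25 to -0.15, and leaving out 1 replicate number with the block gave 28 to 34 lower (33 without number 1), 0 to 1 higher and medians of -0.22 to -0.18. The same ranges were 0 and 12 to 15 lower, 0 and 2 to 3 higher and medians of -0.113 to -0.065 without and -0.127 to -0.082 with the block for other replication factors, 0 and 12 to 15 lower and 0 and 5 higher for G1/S regulators, and 0 and 6 to 9 lower, 0 to 1 higher and medians of -0.12 to -0.043 without and -0.113 to -0.051 with the block for mitosis genes. E2F2 was the gene lost among G1/S regulators. Without siCtrl replicate 1 or 2 or siMED12 replicate 1 or 2, 0 of all tested genes were called, so no listed gene could be. Without siCtrl replicate 3, 37 of all tested genes were lower and 5 higher, and without siMED12 replicate 3, 29 and 8. With the block and without number 1, 2 or 3, 2578 of 18113, 2654 of 18290 and 2579 of 17867 genes were lower. The genes higher in those fits numbered 2070, 2199 and 2375. GMNN changed sign under library size only (0.0113 without and 0.0111 with the block), and POLD3 was -0.015 with the block and GC and length correction. Among fits that left out libraries, the lowest and highest values were -0.15 and 0.0203 for ORC4, -0.26 and 0.11 for ORC5, -0.26 and 0.11 for POLA2, -0.048 and 0.086 for POLD3, -0.21 and 0.075 for RFC1, -0.023 and 0.12 for RPA1, -0.13 and 0.025 for CHAF1B, -0.32 and 0.049 for DTL and -2.52 and 0.14 for MYC, whose sign turned without siCtrl replicate 1. Of 1400 alternative values for 70 named or listed genes, 1015 kept their direction and side of the threshold, 356 passed it in addition, 10 no longer did and 19 changed sign. The causes were not tested. Each of the 52 genes had at least 245 counts in every library.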
